A study of Mus musculus with 38 samples.

Results

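Reactive astrocytes are described here through 10 genes that rise when these cells respond to injury or inflammation: Gfap, Vim, Lcn2, Osmr, Serpina3n, Cd44, Steap4, Timp1, S1pr3 and Stat3. They are genes commonly used to mark this state, and they were chosen with earlier results of these data known. Counts of them set beside the share of all probe sets are therefore a description and not a test. For each gene the probe set with 1 gene symbol and the highest mean over all arrays was taken, and each of the 10 genes had exactly 1 such probe set. No difference between groups entered that choice of probe set. The genes are 10 of the 19937 gene symbols on the array. RNA from the hypothalamus of 38 mice, all female and on the FVB/N background, was hybridised to Affymetrix Mouse Gene ST 1.0 arrays, 1 array for each mouse, to see what huntingtin does to gene expression in this region. The levels are log2 intensities, so a difference of 1 is a doubling.

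The groups were as follows. In the AAV experiment, WT mice received bilateral stereotactic injections into the hypothalamus at 8 weeks of age and were taken 4 weeks later, at 12 weeks. The rAAV5 vectors carried an N-terminal HTT fragment of 853 amino acids under the human Synapsin-1 promoter, which is active in neurons. The fragment held 18 CAG repeats in 5 mice (AAV-HTT853-18Q, called 18Q) or 79 in 8 mice (AAV-HTT853-79Q, called 79Q). The 5 WT controls of the same age were not injected. No group analysed here received an empty vector or a sham operation, so that the fragment, the vector and the surgery cannot be told apart when an injected group is compared with WT. BACHD mice carry full-length human mutant HTT with 97 CAG repeats on a bacterial artificial chromosome and express it throughout the body. They were compared with WT littermates at 2 months (6 mice of each genotype) and at 10 months, where 5 carried the transgene and 3 did not.

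Astrocytes feed neurons, clear glutamate and line blood vessels. When tissue is damaged or inflamed they enlarge, build more intermediate filaments and secrete acute phase and matrix proteins. Cytokines of the interleukin-6 family, among them oncostatin M, leukemia inhibitory factor and ciliary neurotrophic factor, drive much of this through receptors that activate the transcription factor STAT3. Several of the 10 genes are not exclusive to astrocytes. Microglia, endothelial cells, tanycytes and immune cells that enter the brain also transcribe Vim, Cd44, Timp1 or Stat3.

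The promoters of the 10 genes were searched for 3 short elements, and 7 of the 10 windows held none of them. The windows reached from 250 bases before to 50 bases after a start in RefSeq (build GRCm38.p6), which is not in every case the outer end of the annotated gene. Osmr lies on the minus strand and reaches 6874968, whereas its window ends at 6874563 and so lies inside the gene. The region at the outer end of Osmr was not searched. The STAT element was searched as TTCNNNGAA on both strands and occurred in 2 of the 10 windows, those of Gfap and Steap4, against 8.3% of 32851 mouse promoters. The interferon-stimulated response element occurred in 0 of 10 windows, against 3.44% of promoters. The AP-1 element TGANTCA occurred in 1 of 10, that of Osmr, where TGATTCA began at position 3 from this inner start, against 7.81% of promoters. The 3 windows below are those of Gfap and Steap4, which hold the STAT element, and of Osmr, which of the 10 genes rose most in both injected groups. Capitals mark the STAT element, which began at position -2 from the start of Gfap and at -116 from that of Steap4.
Gfap, chr11:102897151-102897450, minus strand: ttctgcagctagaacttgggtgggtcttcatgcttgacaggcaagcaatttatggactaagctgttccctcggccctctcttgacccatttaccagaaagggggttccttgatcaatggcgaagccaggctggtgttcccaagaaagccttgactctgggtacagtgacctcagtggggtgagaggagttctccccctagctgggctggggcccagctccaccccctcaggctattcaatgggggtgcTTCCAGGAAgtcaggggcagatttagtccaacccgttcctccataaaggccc
Steap4, chr5:7960222-7960521, plus strand: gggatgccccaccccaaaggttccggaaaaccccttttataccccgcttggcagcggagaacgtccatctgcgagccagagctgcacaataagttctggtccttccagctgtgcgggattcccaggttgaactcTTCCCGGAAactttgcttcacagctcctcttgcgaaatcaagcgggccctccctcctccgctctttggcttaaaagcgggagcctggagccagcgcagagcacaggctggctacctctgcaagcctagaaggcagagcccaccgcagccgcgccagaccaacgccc
Osmr, chr15:6874264-6874563, minus strand: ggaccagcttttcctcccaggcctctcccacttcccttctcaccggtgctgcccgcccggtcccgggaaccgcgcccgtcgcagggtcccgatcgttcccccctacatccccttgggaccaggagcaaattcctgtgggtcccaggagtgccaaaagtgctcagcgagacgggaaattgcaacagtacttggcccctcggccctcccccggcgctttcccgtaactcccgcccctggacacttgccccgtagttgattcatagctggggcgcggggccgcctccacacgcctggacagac
A match describes letters in these windows, and more distant elements were not searched.

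Median log2 values of the arrays lay between 7.16 and 7.46. The AAV, 2 months and 10 months arrays appear to have been normalized as 3 separate sets. This was inferred from exactly equal values, of which any pair of arrays within a set shared 16 to 105 and any pair across sets 0, and is not stated in the sources used here. Levels are therefore compared only within a set. As a check on tissue, the hypothalamic peptide genes Hcrt and Pmch had mean levels of 12.48 and 12.32 over the AAV arrays. The mean of 9 hypothalamus markers lay between 10.37 and 10.51 in WT, while 18Q ranged from 9.53 to 10.57 and 79Q from 9.82 to 10.32, so that all 79Q arrays lay below the WT arrays, with 0 single markers called by limma in either comparison. Its part in the differences was not tested. The mean of 10 astrocyte markers, among them Aldoc and Slc1a2, lay between 11.04 and 11.13 in WT, and the ranges of 18Q (11.02 to 11.20) and 79Q (11.02 to 11.12) overlapped it. Microglia markers did not overlap between injected and control mice. The mean of 9 of them stayed between 7.94 and 8.06 in WT, where the 18Q arrays had 8.38 to 8.91 and the 79Q arrays 8.31 to 9.02. In the array of 18Q replicate 6 all 10 genes were at their lowest level of the 18Q group, and its microglia marker mean of 8.38 was also the lowest of that group.

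In 18Q vs. WT all 10 genes had a higher mean in the injected mice, by 0.18 to 1.06 on the log2 scale (45% of probe sets were higher), with a median of 0.45 against -0.01 over all probe sets. By limma with an adjusted p under 0.05, 7 of the 10 rose, whereas 1.81% of the 34760 probe sets were called higher. In 8 of the 10, every 18Q array lay above every WT array, which held for 2.57% of probe sets. Hypothalamic tissue holds many cell types, so that more RNA for each cell and more cells of a type cannot be told apart. Both filament genes rose, as did all 3 secreted proteins and 2 of the 3 receptors, while Steap4 and Stat3 did not pass.

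**Figure D1:**
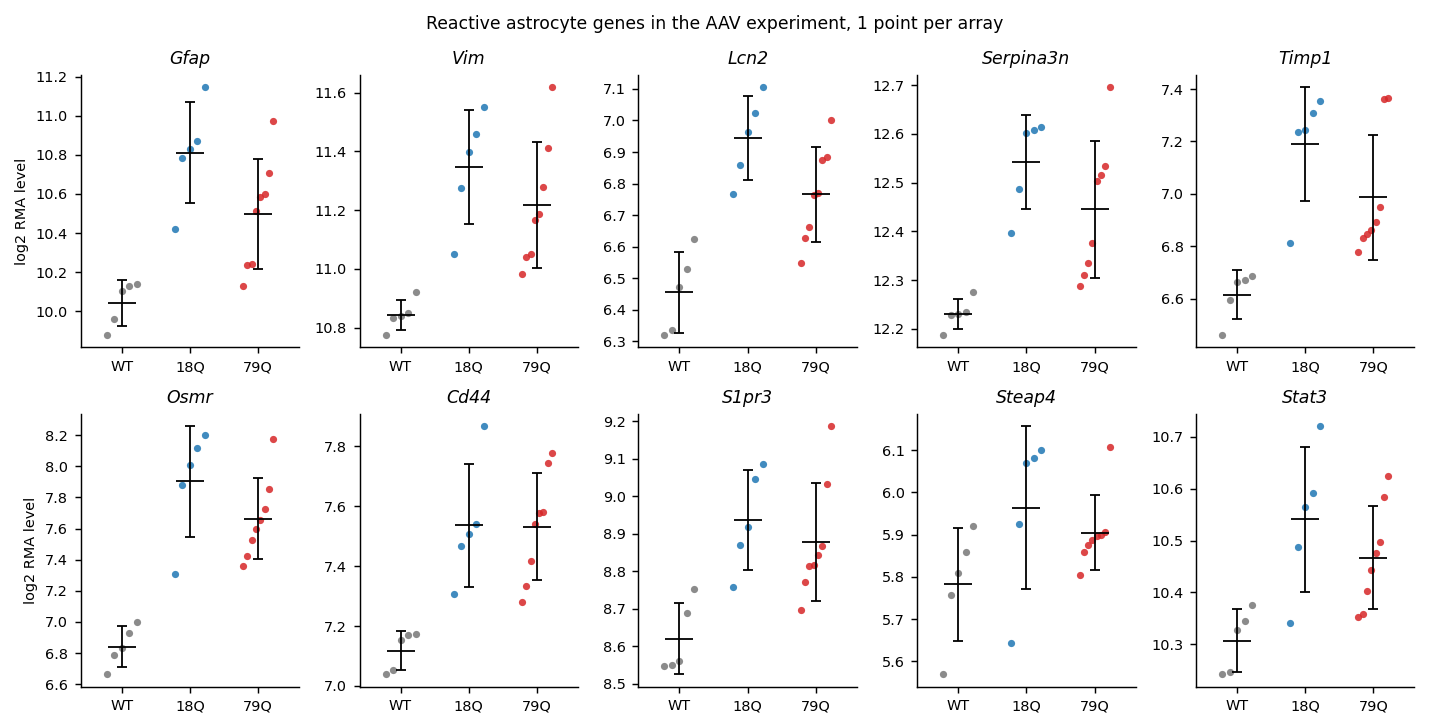
Log2 level of each of the 10 genes in the AAV experiment. Each point is 1 array (5 WT, 5 18Q, 8 79Q), the long dash is the group mean and the bars are 1 SD. For Osmr the 5 WT arrays sit at 6.66 to 6.997 and the 13 injected arrays at 7.31 to 8.20, while for Steap4 the 3 groups overlap.

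Gfap and Vim encode the intermediate filament proteins that thicken in reactive astrocytes. Gfap stood at 10.79, 10.83, 11.15, 10.87 and 10.42 in the 18Q arrays and at 10.13, 10.14, 9.88, 9.96 and 10.10 in the WT arrays. The groups did not overlap, and the lowest 18Q value was replicate 6. The difference was 0.77 (SE 0.14, 1.704-fold, limma adjusted p = 0.00494, exact permutation p = 0.00794), and this exact p is the smallest that 5 against 5 arrays can give. Vim was 11.46, 11.28, 11.40, 11.55 and 11.05 in 18Q against 10.92, 10.77, 10.83, 10.85 and 10.84 in WT. Its WT arrays were tight (SD 0.05), its 18Q arrays less so (SD 0.19), and the difference of 0.50 (SE 0.11, 1.42-fold, limma adjusted p = 0.0145) was larger than either spread. Without 18Q replicate 4, Vim missed the threshold (limma adjusted p = 0.0573).

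The 3 secreted proteins are lipocalin 2 (Lcn2), which binds iron-loaded siderophores and is an acute phase protein, the protease inhibitor Serpina3n, and the metalloproteinase inhibitor Timp1. Lcn2 was 7.11, 6.86, 6.96, 7.02 and 6.77 in 18Q and 6.34, 6.47, 6.62, 6.32 and 6.53 in WT. It rose by 0.49 (SE 0.09, 1.40-fold, limma adjusted p = 0.00295) with no overlap. Timp1 was 7.24, 7.35, 7.24, 7.31 and 6.81 in 18Q and 6.67, 6.46, 6.66, 6.60 and 6.69 in WT. Here replicate 6 stood well below the other four 18Q arrays and yet above every WT array, and the difference was 0.58 (SE 0.12, 1.49-fold, limma adjusted p = 0.0132). Serpina3n moved least of the 7 that passed, from a WT mean of 12.23 (SD 0.03) to an 18Q mean of 12.54 (SD 0.10), a rise of 0.31 (SE 0.07, 1.24-fold, limma adjusted p = 0.0187). Its call was lost in 4 of the 18 fits that each left out 1 array, with adjusted p up to 0.0661.

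Among the receptors, Osmr, which binds oncostatin M together with gp130, had the largest difference of the 10 genes. It was 8.12, 7.88, 8.01, 8.20 and 7.31 in 18Q and 6.93, 6.83, 6.66, 6.79 and 6.997 in WT. That is a rise of 1.06 (SE 0.16, 2.09-fold, limma adjusted p = 0.000576), and it passed in all 18 fits that left out 1 array. Cd44, a receptor for hyaluronan, was 7.47, 7.51, 7.87, 7.54 and 7.31 in 18Q and 7.17, 7.05, 7.17, 7.15 and 7.04 in WT. The rise was 0.42 (SE 0.10, 1.34-fold, limma adjusted p = 0.0312), without overlap, but the call was lost in 8 of the 18 fits that left out 1 array, with adjusted p up to 0.0836. S1pr3, a receptor for sphingosine-1-phosphate, had 18Q values of 8.76 to 9.09 and WT values of 8.55 to 8.75. These did not overlap, and the difference of 0.32 (SE 0.08) had a limma adjusted p of 0.0597.

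Steap4, a metalloreductase, and Stat3 itself had the smallest differences. Stat3 ran from 10.34 to 10.72 in 18Q and from 10.24 to 10.38 in WT, so that 1 array, replicate 6, fell within the WT range. Its difference was 0.23 (SE 0.07, limma adjusted p = 0.0824, exact permutation p = 0.0238). Steap4 overlapped more, with 5.64 to 6.10 in 18Q and 5.57 to 5.92 in WT, and differed by 0.18 (SE 0.08, limma adjusted p = 0.370, exact permutation p = 0.119). Its levels were low, between percentiles 21.2 and 28.8 of all probe sets of an array in the AAV experiment. This limits what its lack of a call, here and in the other AAV comparisons, can show. By the exact test alone, unadjusted, 9 of the 10 genes were under 0.05, all but Steap4, where 5.67% of probe sets were under 0.05 and higher in 18Q. Without 18Q replicate 6 all 10 genes passed limma, with adjusted p of 0.0453 for Steap4, 0.0248 for S1pr3 and 0.0137 for Stat3, and without 18Q replicate 4 the number was 4. The calls over all 34760 probe sets, in either direction, moved too, with 1129 without replicate 6 and 472 without replicate 4.

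In 79Q vs. WT, which shares its 5 WT arrays with the comparison above, all 10 means were again higher in injected mice, by 0.12 to 0.82 (42.2% of probe sets were higher), with a median of 0.34 against -0.02 over all probe sets. By limma 3 of the 10 rose, Osmr, Cd44 and Lcn2, whereas 1.49% of probe sets were called higher. Groups did not overlap for Vim, Osmr, Serpina3n, Cd44 and Timp1, which is 5 of 10 against 1.77% of probe sets. The 7 genes that did not pass had adjusted p from 0.0539 for Vim to 0.513 for Steap4.

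Osmr had a lowest, median and highest level of 7.36, 7.63 and 8.17 in 79Q, all above the highest WT array at 6.997. It rose by 0.82 (SE 0.14, 1.77-fold, limma adjusted p = 0.00268, exact permutation p = 0.000777), and the exact p is the smallest that 8 against 5 arrays can give. Cd44 was 7.28, 7.56 and 7.78 on the same 3 measures, again above every WT array, and rose by 0.41 (SE 0.09, 1.33-fold, limma adjusted p = 0.0190). Its call was lost without WT control replicate 2 (limma adjusted p = 0.0609) and without WT control replicate 7 (limma adjusted p = 0.0573).
Lcn2 was 6.55, 6.77 and 7.001, and its lowest 79Q array lay within the WT range. It rose by 0.31 (SE 0.08, 1.24-fold, limma adjusted p = 0.0431, exact permutation p = 0.00311), a call that was lost in 11 of the 18 fits that left out 1 array, with adjusted p up to 0.143.

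The filament genes came close to the threshold in 79Q vs. WT. Gfap had a lowest, median and highest level of 10.13, 10.55 and 10.97, and its lowest array was just inside the WT range, which ended at 10.14. The difference was 0.46 (SE 0.13, 1.37-fold, limma adjusted p = 0.0844, exact permutation p = 0.00699). Vim was 10.98, 11.18 and 11.62, above all WT arrays, with a difference of 0.37 (SE 0.10, 1.30-fold, limma adjusted p = 0.0539). Serpina3n differed by 0.21 (SE 0.06, limma adjusted p = 0.0910), Timp1 by 0.37 (SE 0.11, limma adjusted p = 0.0985), S1pr3 by 0.26 (SE 0.08, limma adjusted p = 0.0925) and Stat3 by 0.16 (SE 0.06, limma adjusted p = 0.203). By the unadjusted exact test 9 of the 10 were under 0.05, where 6.08% of probe sets were under 0.05 and higher in 79Q, and Steap4, at 0.12 (SE 0.07), had an exact permutation p of 0.0575. With 1 probe set for each gene symbol, 7 of the 10 passed in place of 3, and 804 of the 19937 probe sets then tested were called in either direction. Without 79Q replicate 3 the number was 5, and without WT control replicate 2 or 7 it was 1, Osmr.

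The question of repeat length is addressed by 79Q vs. 18Q, the direct comparison of the injected groups. All 10 means were lower in 79Q, with a median difference of -0.11 against -0.01 over all probe sets, and 54.6% of probe sets were lower. By limma 0 of the 10 passed, as did 0 of all 34760 probe sets. At an unadjusted p under 0.05 there were 2, Gfap and Lcn2, where 4.24% of probe sets reached that level. Gfap had a log2 difference of -0.31 (95% interval -0.58 to -0.04, limma p = 0.0265, exact permutation p = 0.0738) and lay above the 18Q mean in 1 of the 8 79Q arrays. Lcn2 had a log2 difference of -0.18 (95% interval -0.34 to -0.02, limma p = 0.0336, exact permutation p = 0.0637). Osmr had -0.24 (95% interval -0.53 to 0.06) and Cd44 -0.01 (95% interval -0.19 to 0.18), so that for Cd44 a difference over 0.19 in either direction lay outside the interval. By the exact test 0 of 10 were under 0.05 (3.88% of probe sets were), but without 18Q replicate 6 there were 4, Gfap, Lcn2, Osmr and Steap4, while limma still called none. The share of all probe sets under 0.05 by the exact test without that array was not computed.

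**Figure D2:**
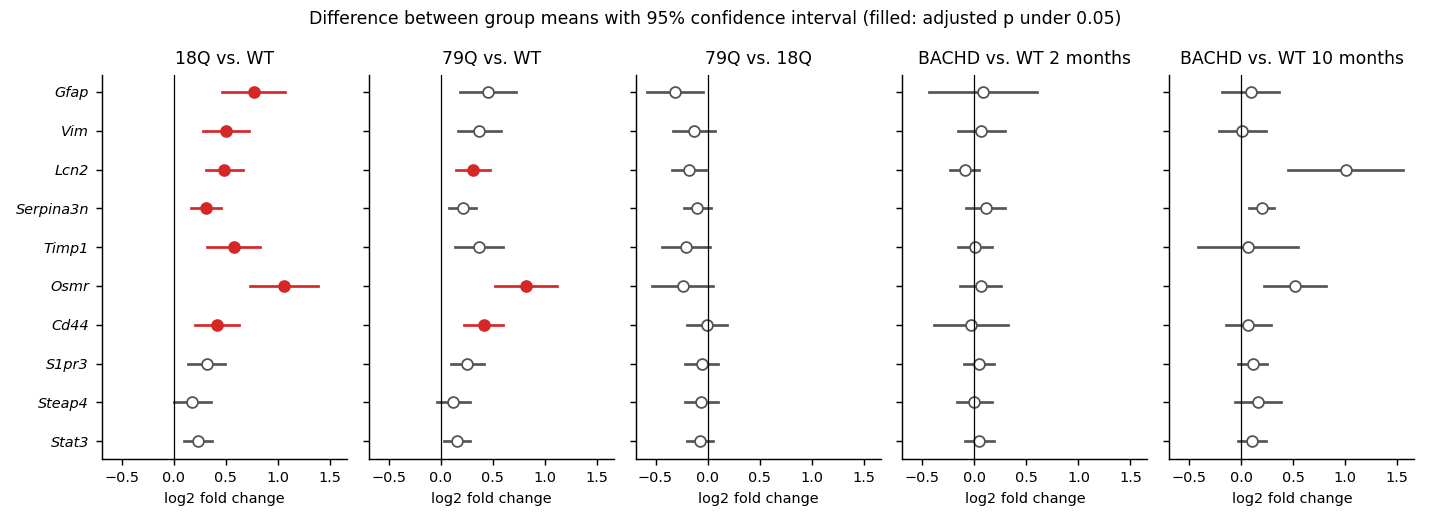
Difference between group means on the log2 scale for the 10 genes in the 5 comparisons, with limma's 95% interval. Filled red points have an adjusted p under 0.05: 7 genes for 18Q against WT, 3 for 79Q against WT and 0 in each of the other 3 comparisons.

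The 13 injected mice differed among themselves. Over these mice the level of Gfap correlated with Serpina3n (r = 0.88, rho = 0.86, permutation p = 1e-04, adjusted p = 0.00045), with Osmr (r = 0.87, rho = 0.90, permutation p = 9e-05, adjusted p = 0.00045) and with Vim (r = 0.84, rho = 0.86, permutation p = 0.00046, adjusted p = 0.00138). Of 9 relations tested, 7 had an adjusted p under 0.05, the others being Cd44 (r = 0.82), Timp1 (r = 0.79), Lcn2 (r = 0.75) and S1pr3 (r = 0.68). Stat3 (r = 0.41, rho = 0.46, permutation p = 0.167) and Steap4 (r = 0.36, rho = 0.24, permutation p = 0.228) did not pass. Among 19936 other genes ranked by r with Gfap over these mice, Serpina3n was at rank 21, Osmr at 28, Vim at 89, Cd44 at 116, Timp1 at 189, Lcn2 at 346 and S1pr3 at 614, and 3.08% of genes had an r at or above that of S1pr3. Stat3 was at rank 2722 and Steap4 at 3306. Leaving out the 2 mice farthest from the median of Gfap gave r = 0.88 for Serpina3n, 0.89 for Osmr, 0.86 for Vim, 0.68 for Cd44, 0.88 for Timp1, 0.70 for Lcn2 and 0.77 for S1pr3. Within the 8 79Q mice alone r was 0.96 for Cd44 and 0.95 for Osmr, and -0.30 for Steap4. When each group's mean was removed, 7 of 9 relations again had an adjusted p under 0.05.

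**Figure D3:**
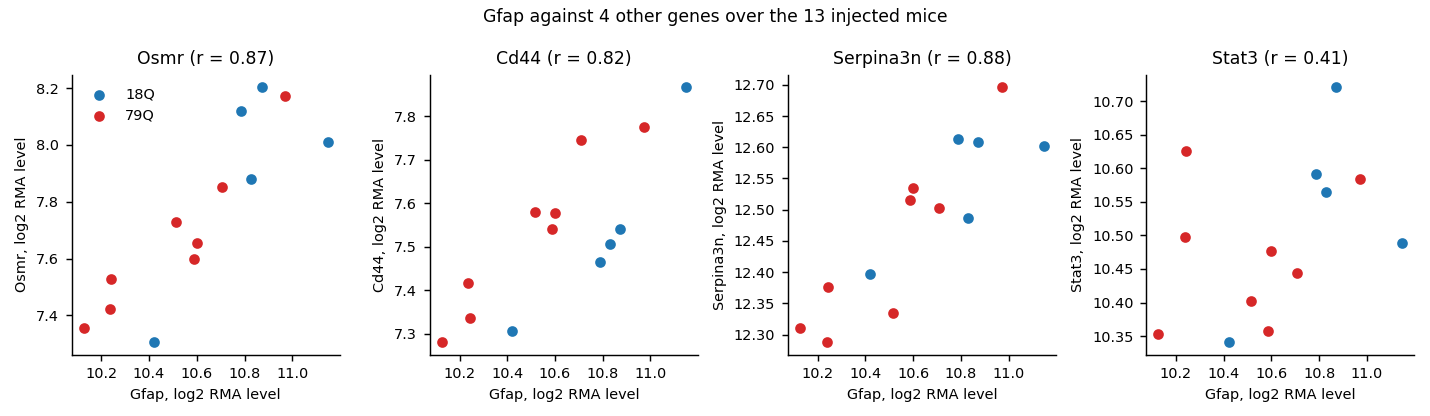
Level of Gfap (x axis, log2) against the level of Osmr, Cd44, Serpina3n and Stat3 (y axes, log2), 1 point for each of the 13 injected mice. The first 3 genes rise with Gfap (r = 0.87, 0.82 and 0.88), while Stat3 scatters (r = 0.41).

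In the 79Q group replicate 7 had the highest level for 7 of the 10 genes, and it also had the highest microglia marker mean of that group, 9.02. Over the 13 injected mice the microglia marker mean correlated with 9 of the 10 genes at an adjusted p under 0.05 over 10 relations, most of all with Vim (r = 0.91, rho = 0.84, permutation p = 1e-05, the smallest that 100000 permutations can give) and Osmr (r = 0.91, rho = 0.90, permutation p = 5e-05). Steap4 was the exception (r = 0.31, rho = 0.20, permutation p = 0.303). By rho, 8 of 10 passed, with Stat3 also missing (rho = 0.55, permutation p = 0.0551). Leaving out the 2 mice farthest from the median of the microglia markers gave r = 0.84 for Vim and 0.87 for Osmr. How many of all genes correlated as well with this mean was not computed, so the count of 9 cannot be set against a background. This marker list was set against the genes after its levels had been seen, and its part in the differences was not tested.

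Of 19936 other genes, the 5 whose deviations from the group means over the 18 AAV arrays were most like those of Gfap were Stat6 (r = 0.91), Blnk (r = 0.90), Ctsd (r = 0.90), Tln1 (r = 0.90) and Tgm2 (r = 0.90). Stat6 is the transcription factor downstream of interleukin-4 and Ctsd the lysosomal protease cathepsin D. The arrays share RNA from whole tissue and these values are a description. Among the other 9 genes of the list, Cd44 ranked highest (rank 10, r = 0.87), followed by Osmr (rank 23, r = 0.85), Serpina3n (rank 78), Vim (rank 108), Timp1 (rank 462), S1pr3 (rank 673), Lcn2 (rank 1482), Steap4 (rank 3695) and Stat3 (rank 3820, r = 0.29).

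Among the remaining genes of the STAT3 pathway few passed. Over all genes, 2.47% were called higher in 18Q vs. WT and 2.02% in 79Q vs. WT, and 0.431% and 0.722% were called lower. Of 7 ligands measured (of 8 listed), 0 passed in either comparison with WT. Their mean levels, from 3.25 for Il6 to 7.10 for Clcf1, lay below the median log2 value of every AAV array (lowest 7.38). The lack of calls among ligands therefore shows little. Lif, leukemia inhibitory factor, differed by 0.28 (SE 0.08, limma adjusted p = 0.104) in 18Q vs. WT and by 0.27 (SE 0.07, limma adjusted p = 0.0759) in 79Q vs. WT, and Il6 by 0.06 (SE 0.07) and 0.06 (SE 0.06). The other ligands of lowest p, Clcf1 (0.12, SE 0.06 and 0.06, SE 0.05) and Ctf1 (-0.0042, SE 0.07 and -0.09, SE 0.07), did not pass either. Of 8 receptors and kinases (of 9 listed), 1 rose in 18Q vs. WT, the interleukin-6 receptor Il6ra, by 0.30 (SE 0.07, limma adjusted p = 0.0259), and 0 in 79Q vs. WT, where Il6ra differed by 0.18 (SE 0.06, limma adjusted p = 0.180). The kinase Jak2 (0.13, SE 0.04 and 0.08, SE 0.04), the shared receptor gp130 or Il6st (0.10, SE 0.04 and 0.03, SE 0.03) and Lifr (-0.07, SE 0.06 and -0.09, SE 0.05) did not pass. Of 10 feedback and target genes (of 12 listed), 2 rose in each comparison, and 10 of 10 and 8 of 10 had a difference above 0. They were Bcl3, a nuclear regulator of NF-kB, by 0.53 (SE 0.11) and 0.43 (SE 0.10), and the adhesion molecule Icam1, by 0.62 (SE 0.14) and 0.56 (SE 0.12). Their limma adjusted p values lay between 0.0113 and 0.0243. The kinase Pim1 (0.21, SE 0.07 and 0.21, SE 0.06) and Fos (0.32, SE 0.12 and 0.23, SE 0.11) did not pass. The list medians were 0.06, 0.04 and 0.16 in 18Q vs. WT, beside -0.01 over all probe sets.

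Other genes used to describe reactive astrocytes differed more from list to list. Among 4 further genes reported in reactive astrocytes of several injury models, Cxcl10, a chemokine induced by interferon, rose by 3.91 (SE 0.32, limma adjusted p = 1.28e-06) in 18Q vs. WT and by 3.40 (SE 0.29, limma adjusted p = 1.67e-06) in 79Q vs. WT. Ceruloplasmin (Cp), a copper-carrying ferroxidase, rose by 0.50 (SE 0.10, limma adjusted p = 0.00925) in 18Q vs. WT and differed by 0.33 (SE 0.09, limma adjusted p = 0.0738) in 79Q vs. WT. The other members of that list, Aspg (0.22, SE 0.07 and 0.19, SE 0.06) and Hspb1 (0.36, SE 0.14 and 0.03, SE 0.13), did not pass. The neuroinflammatory (A1-like) list held 12 genes. Of these, 7 had a probe set annotated with 1 gene symbol, the others were not examined, and 4 of the 7 rose in both comparisons. They were Iigp1 (2.55, SE 0.27 and 2.38, SE 0.24), Psmb8 (1.44, SE 0.20 and 1.38, SE 0.18), Serping1 (1.17, SE 0.15 and 1.02, SE 0.14) and Srgn (0.77, SE 0.15 and 0.59, SE 0.13). Iigp1 is an interferon-induced GTPase, Psmb8 an immunoproteasome subunit, Serping1 the inhibitor of complement C1 and Srgn a proteoglycan of immune cells. In 79Q vs. WT 1 gene of that list fell, Fkbp5, with a log2 difference of -0.24 (SE 0.06, limma adjusted p = 0.0346), a glucocorticoid target that was chosen for mention after its value was seen. Of 12 genes of the ischemia (A2-like) list, 1 rose in both comparisons, Cd109, by 0.44 (SE 0.10) and 0.42 (SE 0.09). Ptgs2 (0.40, SE 0.12 and 0.34, SE 0.11), Tgm1 (0.42, SE 0.16 and 0.42, SE 0.15) and Tm4sf1 (-0.18, SE 0.07 and -0.17, SE 0.06) did not pass.

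Genes of resting astrocytes did not move as one. Of 22 measured, 2 rose in 18Q vs. WT, the water channel Aqp4 by 0.52 (SE 0.12, limma adjusted p = 0.0265) and the lipid carrier Apoe by 0.17 (SE 0.04, limma adjusted p = 0.0311), and 0 fell. In 79Q vs. WT 0 rose and 2 fell, angiotensinogen (Agt) with a log2 difference of -0.29 (SE 0.07, limma adjusted p = 0.0384) and the gap junction protein Gjb6 with -0.25 (SE 0.06, limma adjusted p = 0.0449), where 0.722% of all genes were called lower. At an unadjusted limma p under 0.05, 8 of the 22 were lower and 3 higher in 79Q vs. WT. The difference between the 2 injected groups did not pass for any of them, with -0.15 (SE 0.07) for Agt and -0.14 (SE 0.06) for Gjb6. The list medians were -0.03 in 18Q vs. WT and -0.04 in 79Q vs. WT. Of 16 genes of glial scar and matrix (of 17 listed), 1 rose in each comparison, fibronectin (Fn1) in 18Q vs. WT by 0.38 (SE 0.09, limma adjusted p = 0.0369) and galectin 3 (Lgals3) in 79Q vs. WT by 0.23 (SE 0.06, limma adjusted p = 0.0451). Cd9 (0.23, SE 0.08 and 0.27, SE 0.07) and Tgfb1 (0.24, SE 0.07 and 0.22, SE 0.06) did not pass.

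Markers of other cells moved with these results. Of 9 microglia markers, 7 rose in each comparison with WT, with medians of 0.66 and 0.58, among them Csf1r by 0.65 (SE 0.10) and 0.49 (SE 0.09) and Cx3cr1 by 0.47 (SE 0.10) and 0.42 (SE 0.09). Of 6 T cell markers 3 rose in each, among them Cd3e by 0.70 (SE 0.13) and 0.55 (SE 0.12) and Cd3g by 2.13 (SE 0.32) and 1.72 (SE 0.29), and their mean was at most 6.22 in WT (lowest 6.06), against 6.48 to 7.15 for 18Q and 6.50 to 7.08 for 79Q. Of 5 B and plasma cell markers 2 rose in 18Q and 1 in 79Q, with Jchain higher by 4.50 (SE 0.54) and 3.85 (SE 0.49) and Mzb1 by 0.72 (SE 0.17) in 18Q, while its 0.55 (SE 0.15) in 79Q did not pass. Of 7 monocyte and neutrophil markers 0 passed, with -0.02 (SE 0.06) and -0.06 (SE 0.06) for Camp and -0.18 (SE 0.08) and -0.03 (SE 0.08) for S100a9. Of the same 7, 2 had a difference above 0 in each comparison, up to 0.45 and 0.41, and the list medians were -0.02 and -0.03. These 2 had an unadjusted limma p under 0.05, as did S100a9, which was lower, in 18Q vs. WT. The mean of the 7 was at most 5.43 in any AAV array, below every array median (lowest 7.38). This limits what the lack of calls can show. Of 7 endothelial markers 1 rose in 18Q vs. WT, Cldn5, by 0.37 (SE 0.09, limma adjusted p = 0.0363), and 0 in 79Q vs. WT, and Flt1 differed by 0.25 (SE 0.09) and 0.18 (SE 0.08). Of 6 pericyte markers 1, Anpep, rose in each, and the brightest did not pass, Rgs5 (0.11, SE 0.09 and 0.18, SE 0.08) and Vtn (0.27, SE 0.09 and 0.25, SE 0.08).

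Markers of tanycytes, ependyma, fibroblasts, oligodendrocytes, neurons, choroid plexus, thalamus and pituitary gave 0 calls in both comparisons, but some of their levels differed between the groups. The mean of 7 neuron markers lay between 11.91 and 11.97 in 18Q, below all WT arrays at 11.99 to 12.08, and between 11.92 and 12.03 in 79Q, which overlapped WT. All 7 had a lower mean in 18Q, with -0.09 (SE 0.04) for Snap25 and -0.04 (SE 0.03) for Syt1, and 6 of 7 in 79Q, with -0.10 (SE 0.04) and -0.06 (SE 0.03). Pituitary markers varied from mouse to mouse, with a mean of 6.93 to 8.47 for 18Q, 6.56 to 8.19 for 79Q and at most 7.01 for WT (lowest 6.46). Prl differed by 3.13 (SE 1.06, limma adjusted p = 0.171) and Gh by 1.65 (SE 0.63, limma adjusted p = 0.251) in 18Q vs. WT, and by 1.504 (SE 0.95) and 0.63 (SE 0.57) for the 79Q mice. In the former the brightest pituitary markers, Cga (0.01, SE 0.77) and Lhb (0.08, SE 0.10), had differences smaller than their error. For the 2 brightest markers of each remaining list the differences in 18Q and 79Q were -0.24 (SE 0.21) and -0.26 (SE 0.19) for Gpr50 and 0.06 (SE 0.09) and -0.12 (SE 0.08) for Lhx2 of tanycytes. Those of ependyma were Foxj1 (0.15, SE 0.04 and 0.12, SE 0.04) and Ccdc153 (-0.11, SE 0.05 and -0.15, SE 0.05). Fibroblast markers Pdgfra (-0.12, SE 0.06 and -0.18, SE 0.06) and Dcn (0.26, SE 0.13 and 0.15, SE 0.11) differed in sign. Oligodendrocyte markers Mbp (0.08, SE 0.08 and 0.09, SE 0.07) and Cnp (0.05, SE 0.11 and 0.08, SE 0.10) did not pass, nor did Ttr (-0.25, SE 0.31 and 0.38, SE 0.28) and Clic6 (-0.10, SE 0.12 and -0.10, SE 0.11) of the choroid plexus. The brightest thalamus markers were Calb2 (-0.24, SE 0.07 and -0.15, SE 0.06) and Ntng1 (-0.11, SE 0.14 and -0.01, SE 0.13). In each comparison 4 of the 7 thalamus markers had a difference above 0, up to 0.65 and 0.54, with list medians of 0.03 and 0.07. The part of these cells in the levels of the 10 genes was not tested.

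In BACHD vs. WT at 2 months 0 of the 10 genes passed, as did 0 of all probe sets, and 0 of the 10 had an unadjusted limma p under 0.05, which 4.09% of probe sets had. The differences ran from -0.10 for Lcn2 to 0.11 for Serpina3n. Lcn2 was 5.44 to 5.74 in BACHD and 5.56 to 5.82 in WT, and Osmr was 6.61 to 7.14 and 6.72 to 6.92, so both overlapped. Lcn2 was low at this age, between percentiles 22.6 and 28.4 of all probe sets of an array, which limits what its small difference can show. Gfap varied widely in both genotypes, from 9.73 to 11.13 in BACHD (SD 0.53) and from 9.87 to 10.93 in WT (SD 0.39), and the mean difference was 0.08 (SE 0.24, 95% interval -0.43 to 0.60). At this age the interval for Gfap was therefore wide enough to hold a difference of the size seen in 79Q vs. WT, while for Osmr it was -0.13 to 0.26.

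The spread of Gfap at 2 months ran beside that of thalamus markers. The mean of 7 such markers, among them Calb2 and Ntng1, split the 12 arrays into 5 with 8.88 to 9.17 (3 BACHD and 2 WT) and 7 with 10.04 to 10.71 (3 BACHD and 4 WT). Gfap was 10.53 to 11.13 in the first 5 and 9.73 to 10.60 in the other 7, and Vim was 10.91 to 11.14 and 10.54 to 11.01. Lcn2, at 5.55 to 5.75 and 5.44 to 5.82, and Osmr, at 6.73 to 7.14 and 6.61 to 7.12, covered about the same range in both. Within the arrays of low thalamus markers BACHD minus WT was 0.18 for Gfap, and within those of high thalamus markers it was -0.17, and no test was run within these subsets, which were formed after the data had been seen. The part of thalamic tissue in the Gfap levels was not tested.

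**Figure D4:**
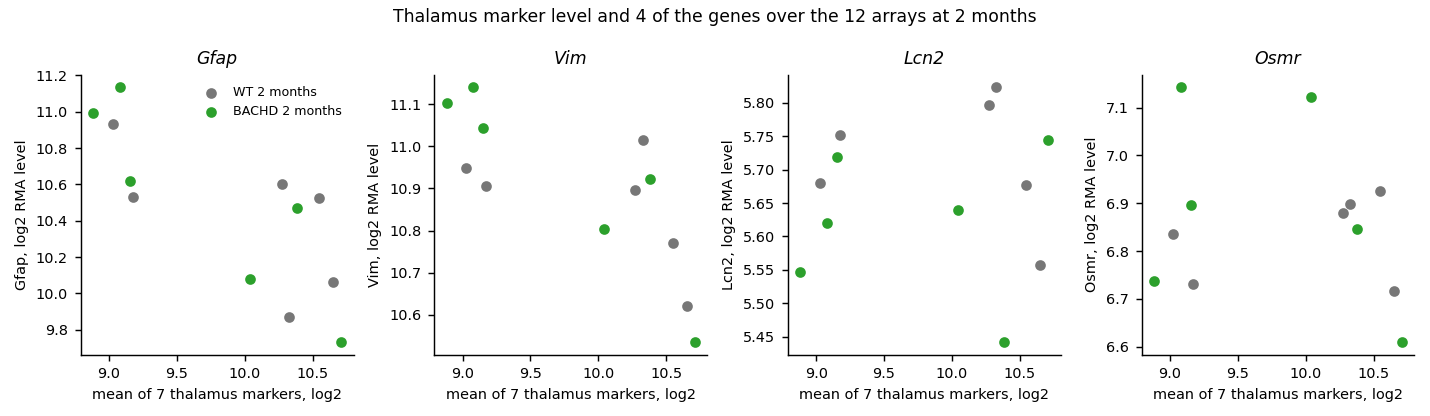
Mean of 7 thalamus markers (x axis, log2) against the level of Gfap, Vim, Lcn2 and Osmr (y axes, log2), 1 point for each of the 12 arrays at 2 months, grey for WT and green for BACHD. The 5 arrays on the left have Gfap levels of 10.53 to 11.13 and the 7 on the right 9.73 to 10.60, while Lcn2 covers about the same range on both sides.

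In BACHD vs. WT at 10 months 0 of the 10 genes passed, as did 0 of all probe sets (limma adjusted p = 0.997 for each of the 10). All 10 means were higher in BACHD, where 53.9% of probe sets were. Groups did not overlap for 3 of the 10, Lcn2, Osmr and Serpina3n, and 3.49% of probe sets had that property in either direction. These 3 also had an unadjusted limma p under 0.05, against 4.55% of probe sets. The filament genes did not stand out, with 0.09 (SE 0.12) for Gfap and 0.01 (SE 0.10) for Vim.

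Lcn2 was 7.12, 7.97, 7.57, 6.80 and 7.04 in the BACHD mice and 6.27, 6.26 and 6.37 in the WT mice. The WT arrays lay close together (SD 0.06) and the BACHD arrays far apart (SD 0.47), and the mean difference was 1.002 (SE 0.24, 2.00-fold, limma p = 0.00302, exact permutation p = 0.0357). Osmr was 7.38, 7.75, 7.56, 7.17 and 7.74 in BACHD and 7.06, 6.997 and 6.96 in WT, a difference of 0.52 (SE 0.13, limma p = 0.00406, exact permutation p = 0.0357). Serpina3n was 12.78, 12.78, 12.66, 12.77 and 12.80 in BACHD and 12.48, 12.57 and 12.65 in WT, with the nearest arrays of the 2 groups at 12.66 and 12.65. It differed by 0.20 (SE 0.05, limma p = 0.00598, exact permutation p = 0.0179), and 0.0179 is the smallest p that 5 against 3 arrays allow. None of these 3 holds after adjustment over all probe sets, and 2.07% of probe sets had an exact p under 0.05 and were higher in BACHD. Without single arrays the differences stayed at 0.83 to 1.13 for Lcn2, 0.46 to 0.60 for Osmr and 0.15 to 0.24 for Serpina3n. Exact p values in those smaller designs cannot go below 0.0286 (4 against 3 arrays) or 0.0476 (5 against 2), with 0.0571 and 0.0952 as the next possible values. The number under 0.05 then says little. It was 0 without BACHD replicate 1 or 5 and 1 without BACHD replicate 2 or 3 or WT replicate 2. Lcn2 and Osmr were under 0.05 without BACHD replicate 4, and Osmr and Serpina3n without WT replicate 1. Without WT replicate 3 the genes under 0.05 were Serpina3n, S1pr3 and Stat3. Microglia markers overlapped between the genotypes at this age, with means of 8.22 to 8.37 in BACHD and 8.21 to 8.36 in WT, and of 7 monocyte and neutrophil markers 0 had an unadjusted p under 0.05 (S100a8 differed by 0.16, SE 0.08). The mean of these 7 was at most 5.11 in any array at this age, below every array median (lowest 7.28), which limits what their lack of a difference can show. Thalamus markers had means of 9.30 to 10.25 in BACHD and 9.01 to 9.71 in WT.

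**Figure D5:**
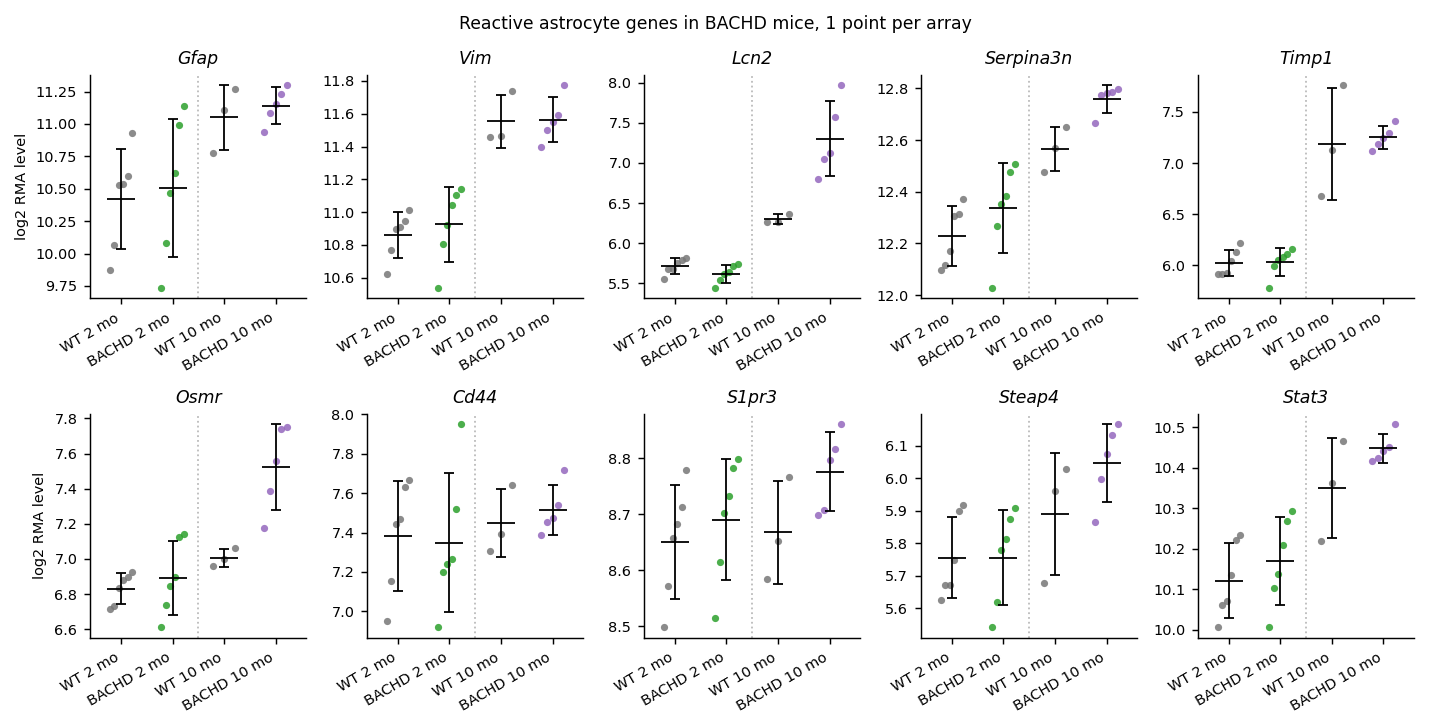
Log2 level of the 10 genes in BACHD and WT mice at 2 and 10 months. Each point is 1 array (6 WT and 6 BACHD at 2 months, 3 WT and 5 BACHD at 10 months), the long dash is the group mean, the bars are 1 SD, and the dotted line separates the 2 ages, which appear to have been normalized apart. For Lcn2 the 5 BACHD arrays at 10 months lie between 6.80 and 7.97, above the 3 WT arrays at 6.26 to 6.37.

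The remaining 7 genes at 10 months overlapped between the genotypes. Timp1 had its widest spread in WT, at 7.12, 6.68 and 7.77, against 7.12 to 7.41 in BACHD. Stat3 differed by 0.10 (SE 0.06), S1pr3 by 0.11 (SE 0.06), Steap4 by 0.16 (SE 0.10), Cd44 by 0.07 (SE 0.10) and Timp1 by 0.06 (SE 0.21). Of the related lists 0 genes passed in BACHD at either age. Ceruloplasmin (Cp) differed by 0.24 (SE 0.07) at 10 months and by -0.09 (SE 0.10) at 2 months, and Cxcl10 by 0.39 (SE 0.25) and -0.10 (SE 0.06).

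Whether the genotype difference changed with age was tested as the difference at 10 months minus that at 2 months, each taken within its own normalization set. By limma 0 of the 10 genes passed. At an unadjusted limma p under 0.05 there were 2, Lcn2 and Osmr, where 2.62% of probe sets were. Lcn2 had 1.10 (SE 0.22, limma adjusted p = 0.9996) and Osmr 0.45 (SE 0.16). This fit used 1 variance for each gene over both ages. For Lcn2 the SD was 0.11 in BACHD and 0.10 in WT at 2 months, but 0.47 in BACHD at 10 months. Its SE of 0.22 was thus below the 0.24 of the 10-month difference alone, so that this SE and the unadjusted p may be too small. An exact permutation of the genotype labels within each age, added after the values were seen, gave p = 0.00305 for Lcn2 and p = 0.0763 for Osmr. These exact p values refer to no genotype difference at either age, and not to an equal difference at both. They therefore do not decide whether the difference changed with age. For Gfap the difference was 0.01 (SE 0.33). The 2 ages also form separate normalization sets by the same inference, and age and set cannot be told apart.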

How the data were processed

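Affymetrix Mouse Gene ST 1.0 arrays measured the hypothalamic RNA of 38 mice. The deposited table holds log2 values that the authors made by robust multi-array averaging (RMA) in R 4.1.1 with affy 1.70.0. The genome build was not given in the sources used here. Of 34760 probe sets, 21640 had 1 gene symbol, 1321 had several and 11799 were not in the annotation table. A listed gene counts as measured if it had a probe set with 1 gene symbol, and the other listed genes were not examined. Exactly equal values, found only within the AAV, the 2 months or the 10 months arrays, were taken as a sign of separate normalization, so each was fitted apart, except for the age comparison. Groups came from the sample labels. Limma 3.58.1 in R 4.3.3 was fitted to all probe sets without a filter, with Benjamini-Hochberg adjustment over 34760 probe sets and a threshold of 0.05. Exact two-sided permutation tests over arrays and permutations of correlations (100000 each) used Python 3.11.15 and scipy 1.17.1. The limma step was tested on simulated data. Arrays have no read depth, so precision is limited by how many there are in a group. Each array was taken to stand for 1 mouse, since the number of arrays in each group equals the number of mice reported for it.

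The text names all 10 genes, the up to 4 genes of each pathway list of lowest p in either comparison of injected with WT mice, the 5 genes most like Gfap and the 2 markers of each cell type list with the highest mean. Fkbp5, Prl, Gh, Anpep and S100a8 lie outside these rules and were chosen after their values were seen. The 10 genes and all lists were chosen with earlier results of these data known. Alternatives were median centring, renewed quantile normalization, a filter on mean level, 1 probe set for each symbol, trend and robust variances, leaving out each array, the replicate number as a block and other arrays in the fit. The exact tests under centring and without single arrays, the exact age test, the microglia correlation, the shares of all probe sets with an exact p under 0.05, the ranks by correlation with Gfap over injected mice and the split by thalamus markers were added after the data had been seen.

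Replicate numbers recur in the labels of different groups. Deviations of same-numbered arrays correlated between 0.03 and 0.09 in 18Q vs. WT (3 pairs) and between -0.31 and 0.28 at 2 months (6 pairs). The ranges were -0.15 to 0.10 in 79Q vs. WT (5 pairs), -0.25 to 0.09 in 79Q vs. 18Q (5 pairs) and -0.16 to 0.09 at 10 months (3 pairs). The numbers were not taken to pair the mice, although such correlations cannot exclude a shared batch or litter.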

Additional observations from a re-analysis of the deposited data

Results flagged for a closer look

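Of 60 groups of values tested, 3 held an array far from the others, and chance gives such an array in about 1 in 20 groups. Timp1 in 18Q replicate 6 was 6.81, where the nearest 18Q array was 7.24. Steap4 in 79Q replicate 2 was 6.11, with the nearest array at 5.91. Serpina3n in BACHD 10 months replicate 3 was 12.66, with the nearest array at 12.77.

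Lcn2 had a genotype difference larger by 1.10 on the log2 scale at 10 months than at 2 months. Its exact permutation p was 0.00305, which refers to no genotype difference at either age and not to an equal difference at both. Limma's adjusted p over all probe sets was 0.9996 for the same difference.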

How the results depend on the processing

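Members passing limma in 18Q vs. WT numbered 7, and 7 to 9 under the alternatives that kept all arrays. Leaving out 1 array gave 4 to 10, and the fits at these ends called 472 and 1129 probe sets in either direction. In 79Q vs. WT 3 passed, against 5 among the brighter probe sets, those whose mean reached the median (where 7 members remained to be tested) and 7 with 1 probe set for each symbol, both of which test fewer probe sets. These 2 alternatives called 764 of 17380 and 804 of 19937 probe sets. Leaving out 1 array gave 1 to 5, where the fits with 1 called 476 and 527 probe sets and the fit with 5 called 811. The other comparisons had 0 under every alternative run. The number with an exact p under 0.05 ranged, without single arrays, from 9 to 10 in 18Q vs. WT and in 79Q vs. WT, from 0 to 4 in 79Q vs. 18Q, from 0 to 1 at 2 months and from 0 to 3 at 10 months, where the smaller designs reach at best 0.0286 or 0.0476. With the replicate number as a block, 8 of the 10 passed in 18Q vs. WT and 2 in 79Q vs. WT, and 402 probe sets were called in 79Q vs. WT in place of 721. The labels do not say whether the numbers pair the mice.

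Signs turned only for differences that never passed, and the cause was not tested. Cd44 in 79Q vs. 18Q was 0.00597 after centring and 0.00737 after quantile normalization. Cd44 was 0.0144 at 2 months after centring and -0.00862 at 10 months with the block. In the age comparison Gfap was -0.0520 after centring, -0.0199 after quantile normalization and -0.114 with the block. Timp1 was -0.000468 and -0.00417 under the first 2 of these, and Stat3 was -0.00805 after centring. Without single arrays, Cd44 in 79Q vs. 18Q ran from -0.063 to 0.077. At 2 months Gfap ran from -0.042 to 0.24, Cd44 from -0.16 to 0.051, Steap4 from -0.030 to 0.043 and Timp1 from -0.021 to 0.055. At 10 months Gfap ran from -0.047 to 0.20, Vim from -0.043 to 0.10, Cd44 from -0.0022 to 0.16 and Timp1 from -0.19 to 0.35. In the age comparison Gfap ran from -0.15 to 0.13, Vim from -0.13 to 0.038, Timp1 from -0.20 to 0.35 and Stat3 from -0.014 to 0.11. The alternative of other probe sets was not run, since each gene had 1.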
